A study of Mus musculus with 6 samples.

Results

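Fibroblast growth factor (FGF) receptors and the FGF ligands that act close to where they are made were examined in RNA from mouse tibia, as 10 genes chosen by name. They are the 4 signalling receptors Fgfr1, Fgfr2, Fgfr3 and Fgfr4, the kinase-less receptor Fgfrl1, and the ligands Fgf1, Fgf2, Fgf7, Fgf9 and Fgf18. Each symbol matched 1 row of the count tables, so 10 of 56748 genes are described. The samples were tibiae of female mice 12 weeks old, 3 labelled Col1a1+/- (heterozygous for the gene of the alpha 1 chain of type I collagen) and 3 labelled wild type. In people, COL1A1 with a single working allele leads to the mild, type I form of osteogenesis imperfecta, and the series title presents a mouse model of that form and names an anti-TGF-β treatment. The labels name no treatment for any of the 6 samples and do not state how the allele was made. They also leave unsaid whether the samples are separate mice, and p-values here cover the spread between these samples alone. Marrow had been washed out of the shafts, and the frozen bone was ground for poly-A selected libraries.

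FGF ligands bind receptor tyrosine kinases together with heparan sulfate chains on cell-surface and matrix proteoglycans. The bound receptors pair up, phosphorylate the adaptor FRS2 and switch on the RAS-MAPK, PLC-gamma and STAT routes, while Sprouty, Spred and dual-specificity phosphatase genes are induced and restrain the signal. In the skeleton, FGFR3 restrains chondrocyte proliferation in the growth plate, and FGFR1 and FGFR2 act in osteoblasts and their precursors. FGF9 and FGF18 signal from the tissues around cartilage, FGF2 is stored in bone matrix, and FGFR4 is known in muscle from its regenerating precursors.

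The libraries held 26.83 to 32.38 M reads, and 18514 genes had enough reads to be tested. Between the genotypes, edgeR's quasi-likelihood test called 265 genes (1.43%) higher and 538 (2.91%) lower in Col1a1+/-, 4.34% in all, at an adjusted p of 0.05. In 28.6% of tested genes the 3 libraries of 1 genotype all lay above or all below the other 3, with Col1a1+/- higher in 14.0% and lower in 14.5%. Col1a1 itself did not check the labels, at 57880 ± 4395 CPM (each gene's reads per M reads of the library, after scaling) in Col1a1+/- against 50990 ± 12700 in wild type (SD, n = 3 each; log2 fold change 0.18, SE 0.31, edgeR adjusted p = 0.78), since its level did not separate the genotypes. Of the marker lists, skeletal muscle took 2.89% ± 1.2 of counts in Col1a1+/- against 7.26% ± 0.993 in wild type, with no overlap. Osteoblast markers (1.36% ± 0.115 against 0.735% ± 0.0861), chondrocyte markers (0.903% ± 0.128 against 0.407% ± 0.0704) and osteoclast markers (0.821% ± 0.105 against 0.56% ± 0.0558) were higher without overlap, each with exact permutation p = 0.1, the smallest that 3 samples against 3 can give (SD, n = 3 each). Every bone-forming list was present, with 12 of 12 osteoblast and 11 of 12 osteocyte markers tested, and no listed marker that matched was at 0 in all 6 libraries. Wild-type replicate 1 stood apart, with 0.564% of counts in neutrophil markers against 0.0949% to 0.157% in the other libraries.

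Of the 10 genes, all of which passed the filter on low counts, Fgfr2 and Fgfr3 rose in Col1a1+/- and none fell by edgeR, beside the 4.34% of all tested genes that edgeR called. At an unadjusted edgeR p under 0.05 stood 4 of the 10, beside 22.8% of all tested genes. DESeq2 called Fgfr1, Fgfr2 and Fgfr3 higher and none lower, beside 13.2% of the 17071 genes with an adjusted p (4.58% higher and 8.59% lower). The calls of limma-voom were Fgfr2 and Fgfr3, beside 4.34% of all genes (1.40% higher and 2.94% lower). Fgfr1 lay higher in Col1a1+/- and Fgfr4 lower, each without overlap between the genotypes and without passing the test. The other 6 genes overlapped between the genotypes. With Fgfr2 and Fgfr3, 3 of the 10 lay higher without overlap and 1 lower, beside 14.0% and 14.5% of all tested genes. The median log2 fold change of the 10 was -0.06, against -0.01 over all tested genes. Scaling the libraries on osteocyte genes put the median of all genes at -0.68. Fgfr1, Fgfr2 and Fgfr3 were then below 0 as well (-0.16, -0.22 and -0.10), each by less than its SE of 0.37. In whole bone, fewer cells of a type and less RNA per cell cannot be told apart.

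**Figure D1:**
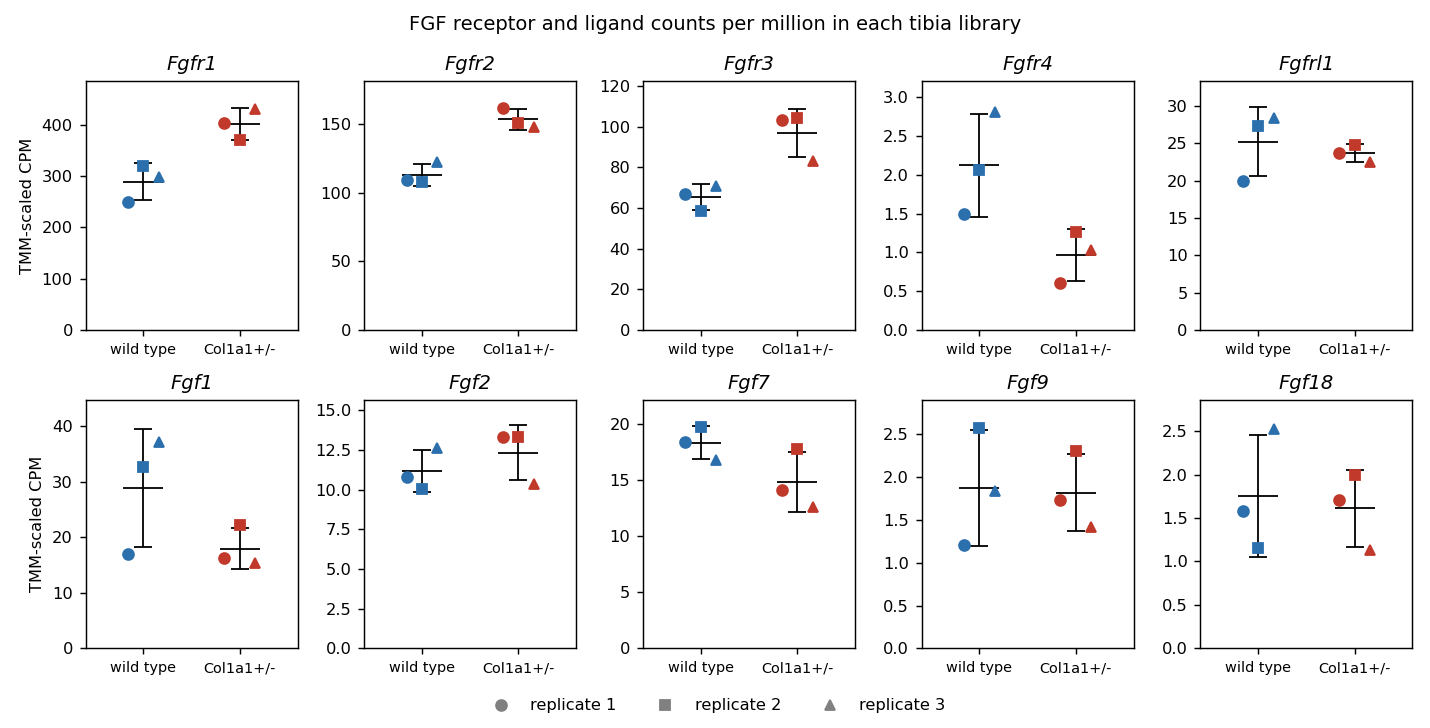
CPM after TMM scaling, the trimmed mean of M values, in each library for the 10 genes, each panel with its own linear axis from 0. Points are libraries, with shapes for the replicate numbers, and bars are the mean and SD of 3 libraries. Fgfr1, Fgfr2 and Fgfr3 sit higher in all 3 Col1a1+/- libraries, Fgfr4 sits lower in all 3, and the other panels overlap.

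Levels of different genes were compared per kb of annotated exon. Fgfr1 was the highest, with 25.21 to 43.62 CPM per kb over the 6 libraries and a median of 34.95. Its lowest library stood above the highest of every other member. Fgfr2 followed with a median of 13.04 (10.44 to 15.67) and Fgfr3 with 10.75 (8.154 to 14.58). Those ranges overlapped, although Fgfr2 was above Fgfr3 in 6 of 6 libraries. Fgfrl1 had a median of 8.735 (7.164 to 10.2), overlapping Fgfr3 and clear of every ligand. Among the ligands Fgf7 (median 5.324 CPM per kb, 3.87 to 6.079) and Fgf1 (3.586, 2.812 to 6.791) overlapped, and both ranges lay above that of Fgf2 (1.727, 1.485 to 1.966). Fgf18 reached a median of 1.385 (0.9519 to 2.13), overlapping Fgf2. Fgfr4 (0.3876, 0.1692 to 0.7922) and Fgf9 (0.3844, 0.26 to 0.5533) were the lowest and were not separated, each being above the other in 3 of 6 libraries. A tibia library therefore held more receptor than ligand transcript per length, 45.54 to 71.1 CPM per kb for the 4 signalling receptors together and 9.463 to 16.36 for the 5 ligands.

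Because Fgfr2 and Fgfr3 passed the test and Fgfr4 lay on the other side, the 250 bases before an annotated start of each are shown, from RefSeq's mouse build GRCm38.p6, 5′ to 3′ on the gene's strand. Such windows were at hand for 8 of the 10 genes, and not for Fgfr1 or Fgf1. Capitals mark the GC box GGGCGG or its reverse complement CCGCCC. The windows are chr7:130266809-130267058 (minus strand) for Fgfr2, chr5:33721474-33721723 (plus strand) for Fgfr3 and chr13:55152568-55152817 (plus strand) for Fgfr4.
Fgfr2: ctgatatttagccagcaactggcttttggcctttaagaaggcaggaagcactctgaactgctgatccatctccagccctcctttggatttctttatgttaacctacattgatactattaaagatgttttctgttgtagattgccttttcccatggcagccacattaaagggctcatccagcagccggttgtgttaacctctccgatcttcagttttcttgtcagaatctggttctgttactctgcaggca
Fgfr3: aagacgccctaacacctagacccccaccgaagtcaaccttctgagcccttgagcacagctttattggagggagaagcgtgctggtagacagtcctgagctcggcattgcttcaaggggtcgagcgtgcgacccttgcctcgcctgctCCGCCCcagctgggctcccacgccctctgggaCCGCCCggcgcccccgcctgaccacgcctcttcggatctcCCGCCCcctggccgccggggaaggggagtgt
Fgfr4: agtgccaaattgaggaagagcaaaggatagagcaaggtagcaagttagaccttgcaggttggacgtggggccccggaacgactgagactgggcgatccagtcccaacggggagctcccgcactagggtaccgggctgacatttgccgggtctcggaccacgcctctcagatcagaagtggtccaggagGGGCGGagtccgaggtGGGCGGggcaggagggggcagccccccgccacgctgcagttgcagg
A GC box on either strand was found in 32.7% of 32851 windows of this length, 3 times in the Fgfr3 window, 2 times in that of Fgfr4 and not in that of Fgfr2. The bases G and C made up 66.8%, 64% and 44% of the Fgfr3, Fgfr4 and Fgfr2 windows, against a median of 52.4%. The TATA box TATAAA, on either strand, is in 12.4% of windows and in none of these 3. A second Fgfr3 window, chr5:33722056-33722305 (plus strand), is not shown and has 2 GC boxes and 72.8% G and C. The Fgfr2 and Fgfr3 windows shown, of the 2 genes that rose, differ in these letters, and a match describes the sequence alone.

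Fgfr3, the receptor whose overactive forms cause achondroplasia, rose in Col1a1+/-. It is annotated on chromosome 5 at 33879018 to 33894412 (GRCm39, plus strand; ENSMUSG00000054252), with 7158 bp of exon. The Col1a1+/- libraries gave 103.3, 104.3 and 83.19 CPM for replicates 1, 2 and 3, and the wild-type libraries 67.08, 58.37 and 70.77. The lowest Col1a1+/- library was above the highest wild-type library. Mean levels were 96.95 ± 11.93 against 65.41 ± 6.37 CPM (SD, n = 3 each), a 1.48-fold difference (log2 0.57, SE 0.13; edgeR adjusted p = 0.0435). Exon sequence of 998 bp (13.9%) is shared with G630022F23Rik on the opposite strand, and reads falling there were not counted for either gene; that neighbour had 2 to 19 reads per library.

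Fgfr2, the receptor mutated in several craniosynostosis syndromes, rose by a similar amount. The Col1a1+/- libraries gave 161.9, 151 and 147.4 CPM and the wild-type libraries 108.8, 107.8 and 122. The groups stood well apart, with 153.4 ± 7.524 against 112.9 ± 7.946 CPM (SD, n = 3 each). The 1.36-fold difference (log2 0.44, SE 0.10) was close to the threshold, with an edgeR adjusted p of 0.0481. The annotated model (ENSMUSG00000030849, chromosome 7, minus strand) runs from 129764181 to 132725079 on GRCm39, but 10014 of its 10328 exon bp lie within the 103.8 kb that end at 129867993. The other 314 bp, beyond a gap of 2815 kb, are all shared with exons of Ctbp2 on the same strand, so no read lying only there was counted for Fgfr2. Ctbp2 had 28.54 ± 3.075 CPM in Col1a1+/- against 27.16 ± 2.785 in wild type (SD, n = 3 each; log2 fold change 0.07, SE 0.13).

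Both calls depended on which libraries entered the fit. Fgfr2 and Fgfr3 kept an adjusted p under 0.05 in 1 of the 6 edgeR fits that left out a library, the one without wild-type replicate 1 (adjusted p = 0.0294 and 0.0261), and lost it without any 1 of the other 5 libraries, where it reached 0.168 and 0.162. With the neutrophil score as a covariate Fgfr2 lost its call (adjusted p = 0.0728) and Fgfr3 kept it (adjusted p = 0.041), both in edgeR. Their log2 fold changes in the fits that left out a library lay between 0.41 and 0.50 and between 0.49 and 0.69.

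Fgfr1, the main FGF receptor of mature osteoblasts and osteocytes, had 403.1, 369.9 and 430.8 CPM in the Col1a1+/- replicates and 248.9, 320.3 and 297.1 CPM in wild type. All 3 Col1a1+/- libraries were above all 3 wild-type libraries. On average 401.3 ± 30.5 CPM stood against 288.8 ± 36.4 (SD, n = 3 each), 1.39-fold higher (log2 0.47, SE 0.14), which missed the threshold at an edgeR adjusted p of 0.08. That fold is of the same size as those of Fgfr2 and Fgfr3, with a wider spread among wild-type libraries. Fgfr1 passed the threshold with DESeq2 (adjusted p = 0.00989), with library totals in place of TMM (0.0323) and with no filter on low counts (0.0274). It lies on chromosome 8 at 26003670 to 26065734 (GRCm39, plus strand; ENSMUSG00000031565) with 9875 bp of exon, of which 164 bp are shared with Gm16159 on the opposite strand, a gene with 12 to 23 reads per library.

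Fgfr4, a receptor known from muscle precursors and liver, stood on the other side. It is annotated at 55300453 to 55316572 on chromosome 13 (GRCm39, plus strand; ENSMUSG00000005320). It took 20, 36 and 29 reads in the Col1a1+/- replicates and 48, 57 and 81 reads in wild type, where the mates of a pair count separately. These are 0.5993, 1.258 and 1.024 CPM against 1.488, 2.065 and 2.806 CPM. The groups did not overlap, but the spread within each was wide. On the log2 scale the difference was -1.14 (SE 0.39, edgeR adjusted p = 0.121). It was below 0 in all 15 alternative fits and passed the threshold in 1, with libraries scaled on osteocyte genes (-1.79, adjusted p = 0.0194). With the muscle list score as a covariate it was -0.22 (SE 0.77).

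Fgfrl1, which binds FGF ligands but lacks the intracellular kinase, (chromosome 5, 108840248 to 108854790, GRCm39, plus strand; ENSMUSG00000008090) was at 23.79, 24.81 and 22.46 CPM in Col1a1+/- against 19.93, 27.39 and 28.37 in wild type. The genotypes overlapped, and the log2 difference was -0.09 (SE 0.15, edgeR adjusted p = 0.773). Its direction was not settled: it was above 0 in 3 of 15 alternative fits, among them that with library totals (0.0087).

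The summed level of the 4 signalling receptors, nearly all of it Fgfr1, Fgfr2 and Fgfr3, was higher in Col1a1+/- without overlap, and the shares of those 3 genes in it overlapped. Each of those 3 genes already lay higher without overlap, so the sum's separation follows from them and its p-value adds no support. The sum was 71.1, 67.01 and 69.81 CPM per kb in Col1a1+/- against 45.54, 51.61 and 52.58 in wild type (69.31 ± 2.089 against 49.91 ± 3.817, SD, n = 3 each; exact permutation p = 0.1). Shares within a library do not depend on how libraries are scaled. Fgfr1 made up 58.6% ± 3.46 of the receptor sum in Col1a1+/- and 58.5% ± 3.9 in wild type. Fgfr2 made up 21.4% ± 0.866 and 21.9% ± 1.53, and Fgfr3 19.6% ± 2.63 and 18.4% ± 2.42 (SD, n = 3 each). For these 3 receptors the genotypes overlapped, and the differences of 0.127, -0.509 and 1.17 percentage points were smaller than the SD within each genotype. Fgfr4 alone was apart, at 0.238%, 0.53% and 0.414% in Col1a1+/- against 0.922%, 1.13% and 1.51% in wild type (exact permutation p = 0.1; adjusted p = 0.45 over the 9 receptor and ligand shares compared).

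**Figure D2:**
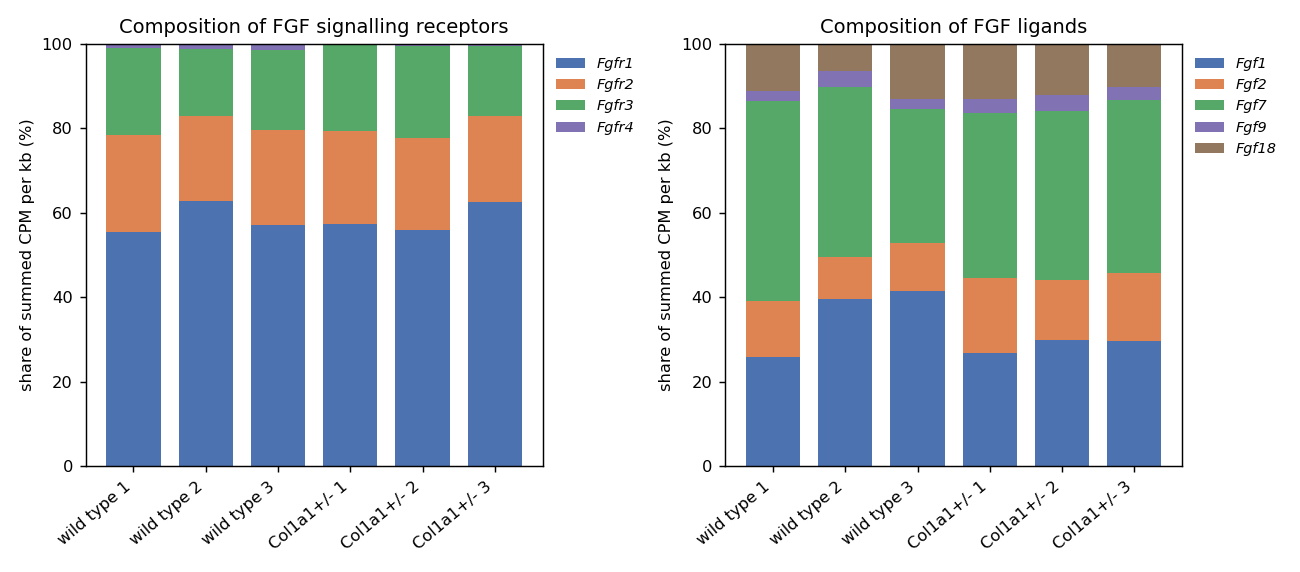
Share of each gene in the summed CPM per kb of the 4 signalling receptors (left) and of the 5 ligands (right), in percent, with 1 bar per library. Fgfr1 holds 55.4% to 62.8% of the receptor sum in every library, and the thin Fgfr4 layer is seen in the wild-type bars. Among the ligands Fgf2 holds more in each Col1a1+/- bar (14.4% to 17.7%) than in any wild-type bar (9.86% to 13.3%).

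Of the ligands none passed the test in edgeR, 0 having an unadjusted p under 0.05, and none passed with DESeq2. Fgf1, a ligand of all FGF receptors (chromosome 18, 38971726 to 39062525, GRCm39, minus strand; ENSMUSG00000036585), gave 16.3, 22.26 and 15.36 CPM in Col1a1+/- against 16.92, 32.57 and 37.1 in wild type. Wild-type replicate 1 lay among the Col1a1+/- libraries, and the other wild-type libraries lay above all of them. The difference was -0.68 on the log2 scale (SE 0.29, edgeR adjusted p = 0.221), and it was -0.92 (adjusted p = 0.0155) without wild-type replicate 1. Fgf1 was also called lower with the neutrophil score as a covariate (-1.15, edgeR adjusted p = 0.0199) and with libraries scaled on osteocyte genes (-1.25, edgeR adjusted p = 0.0188). With the muscle score as a covariate the sign turned, to 0.39 (SE 0.43). Within each genotype the order of the libraries by Fgf1 was that of their muscle list scores, although relative to those scores Fgf1 was higher in Col1a1+/- by 1.33 (log2) without overlap. The scores, as mean log2 CPM, were 8.471, 9.523 and 7.936 in Col1a1+/- against 10.16, 10.54 and 11.08 in wild type; their part in the Fgf1 and Fgfr4 values was not tested beyond that covariate.

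Fgf2, a ligand kept in matrix and basement membrane, was at 13.34, 13.31 and 10.35 CPM in Col1a1+/- against 10.79, 10.07 and 12.64 in wild type. These overlap (log2 fold change 0.14, SE 0.16, adjusted p = 0.66 by edgeR). Its share of the ligand sum was nevertheless higher in all 3 Col1a1+/- libraries, at 16.1% ± 1.67 against 11.5% ± 1.73 (SD, n = 3 each; exact permutation p = 0.1, adjusted p = 0.45 over 9 shares). The ligand sum itself was 11.42 ± 2.124 CPM per kb in Col1a1+/- against 14.46 ± 2.268 in wild type, with overlap (SD, n = 3 each; exact permutation p = 0.2). The gene is annotated on chromosome 3 at 37402495 to 37464257 (GRCm39, plus strand; ENSMUSG00000037225). Of its 6782 exon bp, 640 are shared with Nudt6 on the opposite strand and 255 with Gm43439 on the same strand. Nudt6 stood at 3.171 ± 1.37 CPM in Col1a1+/- against 5.65 ± 0.7064 in wild type (SD, n = 3 each), without overlap and without passing the test (log2 fold change -0.83, SE 0.31, adjusted p = 0.148 by edgeR). Gm43439 had no read in any library.

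Fgf7, the keratinocyte growth factor made by stromal cells (chromosome 2, 125876578 to 125933105, GRCm39, plus strand; ENSMUSG00000027208), was at 14.11, 17.75 and 12.57 CPM in Col1a1+/- against 18.41, 19.75 and 16.84 in wild type. Of the Col1a1+/- libraries only replicate 2 reached into the wild-type range (log2 fold change -0.31, SE 0.16, adjusted p = 0.283 by edgeR). Fgf9 and Fgf18, which drive growth of skeletal precursors and act on the growth plate, were scarce. Fgf9 (chromosome 14, 58308004 to 58350177, GRCm39, plus strand; ENSMUSG00000021974) had 39 to 71 reads per library, with 1.819 ± 0.4524 CPM in Col1a1+/- against 1.872 ± 0.6825 in wild type (SD, n = 3 each). Fgf18 (chromosome 11, 33067430 to 33097400, GRCm39, minus strand; ENSMUSG00000057967) had 32 to 73 reads, with 1.61 ± 0.4392 and 1.756 ± 0.7014 CPM (SD, n = 3 each). Neither was separated by genotype, with log2 fold changes of -0.04 (SE 0.36) and -0.12 (SE 0.38). These SEs are not far below the log2 differences of Fgfr1, Fgfr2 and Fgfr3.

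Fgfr1, Fgfr2 and Fgfr3 were also set against the 5 marker lists whose share was higher in Col1a1+/- without overlap, and Fgfr4 and Fgf1 against muscle lists, as 18 comparisons chosen after the values were seen. Relative to the mean log2 CPM of 12 osteoblast markers, Fgfr1 was lower in Col1a1+/- without overlap, by a difference of -0.211 (log2; exact permutation p = 0.1). For Fgfr2 and Fgfr3 the differences against the same score were -0.247 and -0.126 with overlap (exact permutation p = 0.3 and 0.5). Against 15 chondrocyte markers they were -0.808 for Fgfr1, -0.844 for Fgfr2 and -0.723 for Fgfr3, all with overlap (exact permutation p = 0.2 each). Against osteoclast markers the differences were 0.0517 for Fgfr1, 0.0156 for Fgfr2 and 0.136 for Fgfr3, with overlap (exact permutation p = 0.7, 0.8 and 0.6). Against macrophage markers Fgfr1 was higher without overlap, by 0.238 (exact permutation p = 0.1), and Fgfr2 (0.202) and Fgfr3 (0.322) overlapped. Against markers of periosteum, tendon and fibroblasts Fgfr3 was higher without overlap, by 0.568 (exact permutation p = 0.1), and Fgfr1 (0.484) and Fgfr2 (0.448) overlapped. The lists were picked by share of counts, and the mean log2 CPM of this last list overlapped between the genotypes. It was 5.498, 6.015 and 5.704 in Col1a1+/- against 5.429, 5.893 and 5.907 in wild type. Differences against it are thus close to the log2 fold changes of Fgfr1, Fgfr2 and Fgfr3 themselves (0.47, 0.44 and 0.57). The sign of the receptor difference thus changed with the list it was set against. Relative to the 24 muscle markers, Fgfr4 was higher in Col1a1+/- by 0.849 and Fgf1 by 1.33, both without overlap (exact permutation p = 0.1 each). Relative to 6 tested satellite cell markers Fgfr4 was lower, with a difference of -0.905 (exact permutation p = 0.1). The part of cell makeup in the receptor values was not tested further.

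The libraries' pattern of each of the 3 most abundant members was compared with that of 15199 other genes by Pearson's r of log2 CPM over the 6 libraries, as a description. Closest to Fgfr1 were Serpinh1, which encodes the collagen chaperone HSP47 (r = 0.9987; 0.994 after each genotype's mean was subtracted), BC034090 (0.9982; 0.992) and P3h1, a collagen prolyl 3-hydroxylase (0.9976; 0.999). Closest to Fgfr2 were Zfp629 (0.988; 0.997), Ube2z (0.9863; 0.841) and Gm5869 (0.9852; 0.976). Fgfr3 was most like Osr1, a transcription factor of connective tissue (0.9912; 0.952), Creb5 (0.9909; 0.962) and D630045J12Rik (0.9899; 0.965). The 6 points of each comparison share their libraries' depth and cell makeup. The genes named are the 3 highest of 15199 over only 6 libraries, so high values of r come partly from that choice.

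Outside the local ligands, FGF genes were mostly near or at 0 reads. Of 17 other FGF genes 5 were tested and 12 had too few reads. Fgf6, a ligand made by skeletal muscle, fell from 6.146 ± 1.41 CPM in wild type to 1.526 ± 0.768 in Col1a1+/- (SD, n = 3 each; log2 fold change -2.01, SE 0.36, adjusted p = 0.0286 by edgeR). Its values were 7.625, 4.819 and 5.993 CPM in wild type and 1.319, 2.376 and 0.8828 in Col1a1+/-. The Col1a1+/- libraries are also those with the lower muscle marker share. With the muscle score as a covariate the log2 fold change of Fgf6 was -1.12 (SE 0.61, edgeR adjusted p = 0.785). That score did not overlap between the genotypes, so this fit partly confounds it with genotype. The part of muscle content in the Fgf6 values was not tested. Fgf13, an intracellular homologue that binds sodium channels, stood at -0.80 (adjusted p = 0.0652 by edgeR), Fgf11 at 0.18 and Fgf14 at 0.20. The hormone gene Fgf23, made by osteocytes, had 34, 2 and 0 reads in Col1a1+/- against 12, 5 and 6 in wild type, too few to compare.

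Genes that present FGFs to their receptors lay mostly above 0. Of 17 tested co-receptors and binding proteins 2 rose and none fell by edgeR, beside 1.43% higher and 2.91% lower over all tested genes. DESeq2 called 5 higher and 1 lower, beside 4.58% and 8.59%, and limma-voom 2 higher and 1 lower, beside 1.40% and 2.94%. In edgeR 14 had a log2 fold change above 0, beside 9090 of all 18514 tested genes, with a median of 0.35 against -0.01 for all tested genes. The 5 pathway lists were chosen with earlier results of these data known, so their counts and medians are description only. Sdc3, a cell-surface heparan sulfate proteoglycan, rose 1.67-fold, with 459.4, 477.9 and 533.2 CPM in Col1a1+/- against 286, 335 and 258.6 in wild type (log2 fold change 0.74, SE 0.14, adjusted p = 0.0321 by edgeR). The glypican gene Gpc4 rose 1.5-fold, from 29.08 ± 1.133 to 43.51 ± 5.367 CPM (SD, n = 3 each; adjusted p = 0.0344 by edgeR). Fgfbp1, a carrier that releases FGFs from matrix, stood at -1.89 (adjusted p = 0.0863) and Flrt1 at -1.09 (adjusted p = 0.119), both by edgeR. Fgfbp1 was called lower with DESeq2 (-1.88, adjusted p = 0.00327), with limma-voom (-2.26, adjusted p = 0.0362), on the osteocyte scaling (-2.56, adjusted p = 2.8e-05) and in edgeR without Col1a1+/- replicate 2 (-2.91, adjusted p = 0.00551). It was not called in edgeR without any other library, with library totals (adjusted p = 0.074) or with no filter (adjusted p = 0.142). With the muscle score as a covariate it stood at -0.28 (SE 0.71, edgeR adjusted p = 0.953). As for Fgf6, that fit partly confounds the score with genotype, and the part of muscle content was not tested. Of 15 genes of heparan sulfate synthesis and editing edgeR called 1 higher and none lower, beside 1.43% and 2.91% of all tested genes, and DESeq2 3 higher, beside 4.58%. The gene that rose in edgeR was the chain polymerase gene Ext2 (1.38-fold, from 78.38 ± 3.335 to 108.1 ± 8.608 CPM, SD, n = 3 each; adjusted p = 0.0422 by edgeR), and the list's median log2 fold change was 0.23. The sulfotransferase gene Hs3st3a1 was at 1.41 (adjusted p = 0.0653), Hpse at -0.48 and Hs6st1 at -0.04.

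Further down the pathway 1 gene passed the test. Of 23 signal transducers 1 fell and none rose by edgeR, beside 2.91% lower and 1.43% higher over all tested genes. DESeq2 also called 1 lower and none higher, beside 8.59% and 4.58%, and so did limma-voom, beside 2.94% and 1.40%. The median log2 fold change of the transducers was -0.01. The gene that fell was Sos2, a RAS exchange factor, at 28.49 ± 1.116 CPM in Col1a1+/- against 41.18 ± 5.408 in wild type (SD, n = 3 each; log2 fold change -0.53, SE 0.12, adjusted p = 0.046 by edgeR). Sos2 kept its call without wild-type replicate 1 (edgeR adjusted p = 0.0377) and lost it without each other library (0.0707 to 0.162). It also lost the call with library totals (edgeR adjusted p = 0.0988). Ptpn11, which encodes the phosphatase SHP2, stood at -0.32 (adjusted p = 0.12), Plcg1 at 0.34 (0.129) and Braf at 0.29 (0.219). Of 16 tested feedback inhibitors and target genes 0 passed by edgeR, with 7 at an unadjusted p under 0.05, beside 22.8% of all tested genes. DESeq2 called 3 of them higher, beside 4.58%, and limma-voom 0. In 6 of the 16 all Col1a1+/- libraries were above all wild-type libraries, beside 14.0% of all tested genes, and the list's median was 0.28. These were, named after their values were seen, the inhibitors Spred1, Spred3, Spry4 (0.44, SE 0.18) and Dusp6 (0.29, SE 0.12) and the transcription factor genes Etv5 (0.52, SE 0.19) and Egr1 (0.51, SE 0.16), as log2 fold changes. The inhibitor genes Spred3 (0.63, SE 0.17, adjusted p = 0.0694) and Spred1 (0.38, SE 0.10, adjusted p = 0.0708) came closest by edgeR, and Spry1 (-0.24) and Etv1 (-0.16) lay lower.

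**Figure D3:**
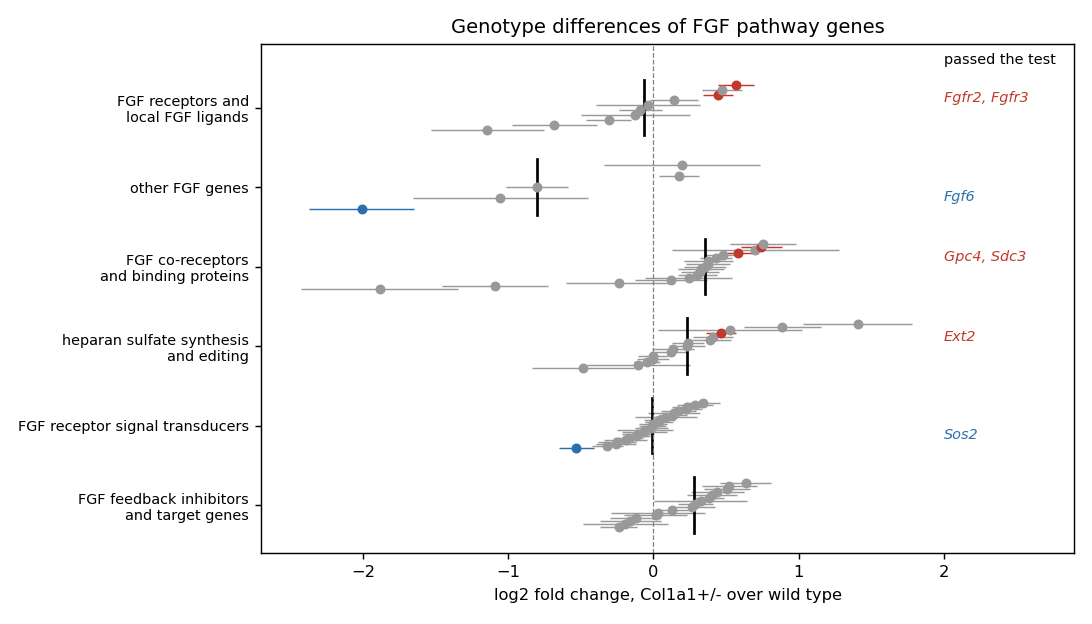
Log2 fold change of Col1a1+/- over wild type, with its SE as a bar, for each tested gene of the 10 members and of 5 FGF pathway lists. Colour marks genes that passed an adjusted p of 0.05 (red higher, blue lower, named at the right), and black lines are list medians. The co-receptor and feedback lists centre above 0, at 0.35 and 0.28, and the transducers at -0.01.

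The number of calls changed with the libraries and the terms in the fit. With 1 library left out edgeR called between 0 and 3 of the 10 members and between 0 and 9 pathway genes. The highest edgeR adjusted p in those fits was 0.129 for Sdc3, 0.122 for Gpc4, 0.144 for Ext2 and 0.144 for Fgf6, so these calls were lost too. When the muscle score entered the fit as a covariate, no gene of the whole table passed in edgeR (1175 had an unadjusted p under 0.05). That score did not overlap between the genotypes, so in this fit it and the genotype are partly confounded. The log2 fold changes of Fgfr1, Fgfr2 and Fgfr3 then stood at 0.38 (SE 0.28), 0.55 (SE 0.21) and 0.88 (SE 0.22), against SEs of 0.14, 0.10 and 0.13 without the covariate. On the osteocyte scaling, Gpc4 (-0.091) and Ext2 (-0.20) also turned below 0, and Sdc3 stood at 0.091 (edgeR adjusted p = 0.847).

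**Figure D4:**
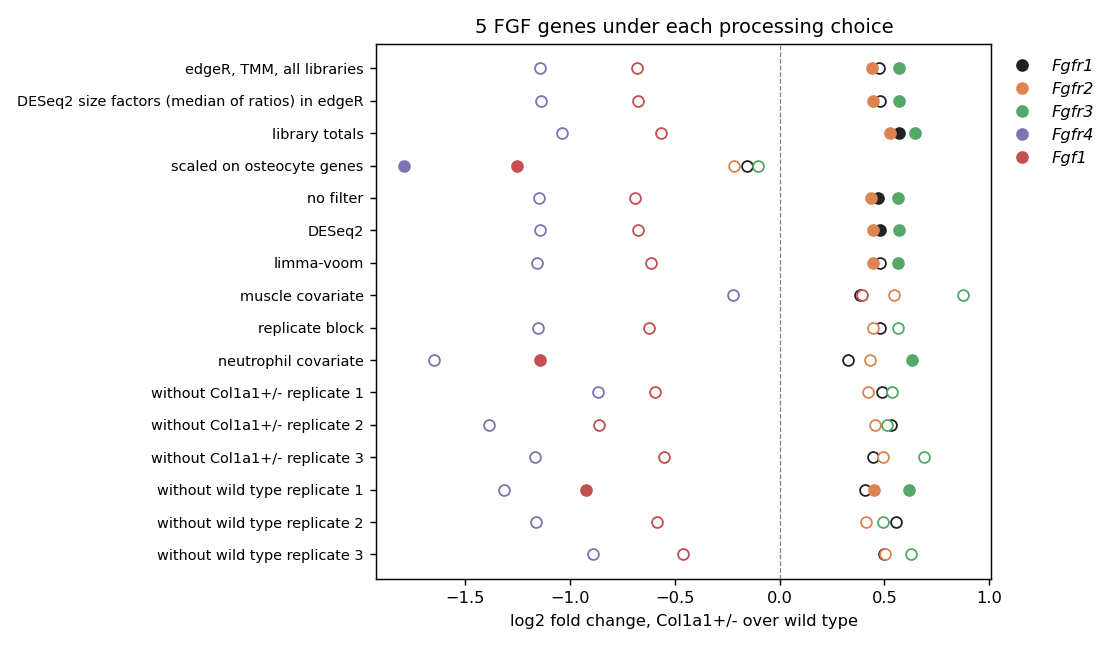
Log2 fold changes of Fgfr1, Fgfr2, Fgfr3, Fgfr4 and Fgf1 under the 16 fits, with filled points where the adjusted p was under 0.05. The 3 receptors at the right stay above 0 in every fit except that scaled on osteocyte genes, while Fgf1 crosses 0 with the muscle covariate.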

How the data were processed

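Counts of reads per gene were deposited as 1 table per library, raw and without normalization, per the file headers. The submitters' processing notes list Trimmomatic 0.39, the aligner HISAT2 2.2.1 and SAMtools 1.20. Per the file headers, featureCounts 2.0.3 counted reads over exons of Ensembl release 107 (GRCm39) with paired input but without counting pairs, so each mate counts as 1 read. No strand was set, and reads in several genes or places were left out. Symbols matched 91.8% of gene identifiers, from an annotation on another build whose coordinates were not used.

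Genes were filtered with filterByExpr, scaled by TMM (factors 0.8924 to 1.104) and compared with edgeR 4.0.16 in R 4.3.3 (quasi-likelihood F test, robust, genotype as the only term, Benjamini-Hochberg adjusted p under 0.05, two-sided). SE is the absolute log2 fold change over the square root of F. Shares and sums were tested over the samples by exact permutation, two-sided. Log2 CPM used a prior count of 2. Levels per kb divide CPM by exon length, which joins all isoforms.

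Alternatives were DESeq2 1.42.0, limma-voom (limma 3.58.1), other scalings, no filter, covariates, the replicate number as a block and leaving out each library. The edgeR fit with TMM and genotype as the only term was tested on simulated counts, and the alternatives were not. Counting error covers reads only. The 10 genes, the 5 pathway lists and the 16 marker lists were chosen with earlier results of these data known. Calcr and Vcam1 each stand in 2 marker lists. Genes named beyond the 10 are Col1a1, up to 4 of each pathway list (the 2 smallest p in each direction), genes sharing exon with a member, and the 3 most alike for the 3 most abundant members; Fgf23, Gm43439, Spry4, Dusp6, Etv5 and Egr1 were named after their values were seen.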

Additional observations from a re-analysis of the deposited data

How the results depend on the processing

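Each of 35 named genes was refitted under 15 alternatives: of 525 log2 fold changes 405 kept direction and call status, 52 lost the call, 27 gained it and 41 turned sign. The 405 include genes that were called in neither fit, and most of the 35 were not called with all libraries. All 52 losses fall on the 2 members and 5 pathway genes that were, so the 405 do not measure how stable the calls are. The number of called genes, 803 with all libraries, was 1327 with library totals, 2382 scaled on osteocyte genes (7 higher and 2375 lower), 1472 with no filter, 2248 with DESeq2 and 0 with the muscle covariate, and between 0 and 1766 with 1 library left out. Members called, 2 in the report, were 0 with the muscle covariate, and between 0 and 3 with 1 library left out. An equal number could hide other genes: on the osteocyte scaling the 2 were Fgfr4 and Fgf1, both lower. With the neutrophil covariate they were Fgfr3, higher, and Fgf1, lower. The 5 pathway calls became 8 with library totals, 10 with no filter, 15 with DESeq2, 0 with the muscle covariate, 3 with the neutrophil covariate (added after the data were seen) and 0 to 9 with 1 library left out. In the report 3 were higher and 2 lower, whereas the osteocyte scaling called 7, with 0 higher and 7 lower. The cause was not tested.

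Replicate numbers are shared between the genotypes, but same-numbered libraries did not deviate together (r of 0.141, 0.0656 and -0.209), and 2 of 6 libraries correlated best with their own number. With the replicate block edgeR called 126 genes, 0 members (Fgfr2 adjusted p = 0.108, Fgfr3 0.0856) and 0 pathway genes.

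Scaled on osteocyte genes, where the median of all genes was -0.68, log2 fold changes turned to -0.40 for Col1a1, -0.16 for Fgfr1, -0.22 for Fgfr2, -0.10 for Fgfr3, -0.51 for Fgf2, -0.50 for Fgf11, -0.45 for Fgf14, -0.091 for Gpc4, -0.20 for Ext2, -0.32 for Plcg1, -0.40 for Braf, -0.025 for Spred3, -0.30 for Spred1, -0.45 for Gm16159, -0.64 for Ctbp2 and -0.25 for G630022F23Rik. With the muscle covariate they turned to 0.29 for Fgfrl1, 0.39 for Fgf1, 0.066 for Fgf7, 0.82 for Fgf9, 0.97 for Fgf18, 0.069 for Fgf13, -0.29 for Ctbp2 and 0.28 for Nudt6. Library totals gave 0.0087 for Fgfrl1, 0.064 for Fgf9 and 0.037 for Hs6st1, limma-voom 0.016 for Fgf9, and the neutrophil covariate -0.076 for Col1a1, -0.64 for Fgf14 and 0.32 for Hpse. With 1 library left out, Fgfrl1 ranged from -0.20 to 0.00228, Fgf9 from -0.25 to 0.26, Fgf18 from -0.35 to 0.23, Fgf14 from -0.13 to 0.76, Hpse from -0.71 to 0.078 and Etv1 from -0.26 to 0.017.

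Differences of shares (Col1a1+/- minus wild type, percentage points) with 1 library left out ranged from -1.82 to 2.31 for Fgfr1, -1.37 to 0.0883 for Fgfr2, -0.123 to 2.63 for Fgfr3, -3.92 to 3.97 for Fgf7 and -0.321 to 2.94 for Fgf18, and Fgf7 turned to -0.0986 without shared exon bases (added after the data were seen). The endothelium (-0.000834 to 0.00711), erythroid (-0.00185 to 0.0797) and B cell (-0.00587 to 0.00111) marker shares also turned. The r of Fgfr1 with Serpinh1 was 0.9856 on library totals. Fgfr4, Fgf9 and Fgf18, at 20 to 81 reads per library, had SEs of 0.36 to 0.39, and counting error was not separated from the spread between samples.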

Other observations

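Shares of the other marker lists were, in Col1a1+/- against wild type (percent of counts, SD, n = 3 each). Periosteum, tendon and fibroblast markers took 0.337% ± 0.0607 against 0.226% ± 0.0126 and macrophage markers 0.0893% ± 0.00792 against 0.0695% ± 0.00804, both without overlap. The genotypes overlapped for osteocytes (0.123% ± 0.0312 against 0.0796% ± 0.0237), muscle satellite cells (0.00775% ± 0.000589 against 0.00659% ± 0.00107), marrow stromal cells (0.0826% ± 0.0106 against 0.0917% ± 0.00942) and adipocytes (0.0474% ± 0.0082 against 0.0628% ± 0.0114). They also overlapped for endothelium (0.082% ± 0.00804 against 0.0785% ± 0.00219), smooth muscle and pericytes (0.0579% ± 0.00481 against 0.0616% ± 0.00645), neutrophils (0.116% ± 0.036 against 0.279% ± 0.246) and erythroid cells (0.324% ± 0.0209 against 0.285% ± 0.0816). B cell (0.0237% ± 0.00394 against 0.0273% ± 0.00805) and Schwann cell markers (0.0107% ± 0.000795 against 0.00962% ± 0.00066) overlapped as well. Over the 16 lists the smallest adjusted p was 0.267 (exact permutation, Benjamini-Hochberg).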
